A study of Mus musculus with 6 samples.

Results

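The NF-kB subunits and the genes that restrain NF-kB were followed in sorted mouse Paneth cells, the granule-rich secretory cells at the base of the small intestinal crypts. The set holds 10 genes, taken by name from the pathway and found in the count table by their Ensembl identifiers among 55414 in all. All 10 were among the 9749 genes with enough counts to be tested. They are the subunit genes Nfkb1, Rela, Nfkb2 and Relb, the feedback inhibitors Nfkbia, Nfkbie, Tnfaip3 and Zc3h12a, and the regulators Bcl3 and Birc3. The 6 libraries came from wild-type (WT) mice, which the study's methods give as C57BL/6J. In 1 group, 3 libraries came from mice fed standard chow, and in the other, 3 libraries came from mice fed zinc depleted chow for 7 weeks. By the labels, mice of both groups had been given tumor necrosis factor (TNF) for 3 hours, so no library is labelled as free of TNF and changes caused by TNF could not be measured. The study describes its sequenced Paneth cell samples as each taken from a single animal, and the ages of the mice were not stated. The design text speaks of 4 replicates per group, of which the labels give 3.

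NF-kB is a family of transcription factors that work as pairs of subunits. In the canonical arm, an activated TNF receptor leads to phosphorylation and destruction of IkB proteins, which frees RelA bound to p50 (the product of Nfkb1) to enter the nucleus. Among the genes it switches on are its own inhibitors, so the response limits itself within hours. In the non-canonical arm, the Nfkb2 product p100 is processed to p52, which partners RelB, and both Nfkb2 and Relb are themselves known targets of the canonical arm.

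The libraries held 6139397 to 12772373 counts. The labelled cell type was checked first: the 12 Paneth cell markers, among them Lyz1 and Mmp7, together took 511770 to 633463 CPM (counts divided by the total of the library and brought to a common total). T cell markers were near absent, with no counts of Cd3e or Trac in any library and a summed level of 0 to 2.19 CPM over 9 genes. Of 12 myeloid markers, 11 had counts, and their summed level was 90.2 to 230 CPM in standard diet libraries and 82.1 to 134 CPM in zinc depleted libraries. Among them, Cd74 gave 120 of the 230 CPM in standard diet replicate 1, and Csf1r had 2 to 6 counts in each library. The pan-leukocyte gene Ptprc had 33 counts in standard diet replicate 2 and 0 to 6 counts in the others, and Itgax had 0 counts in every library. Signal from other epithelial cells differed between libraries. All 8 tuft cell markers were found, and their summed level was 222, 975 and 36.9 CPM in standard diet replicates 1, 2 and 3, and 247, 119.5 and 60.5 CPM in zinc depleted replicates 1, 2 and 3. The sum of 6 stem cell markers was 1256 to 3886 CPM in standard diet libraries and 525 to 729 CPM in zinc depleted libraries. In the same order, 8 proliferation markers had 80.4 to 212 CPM and 39.7 to 53.2 CPM. The sums were 36.1 to 115 CPM and 24.9 to 35.5 CPM for 8 enteroendocrine markers. Those of 10 enterocyte markers overlapped, at 60.8 to 294 CPM and 37.8 to 107 CPM. Those of 7 goblet cell markers also overlapped but reached higher under depleted chow, at 1547 to 2953 CPM and 1753 to 6468 CPM. The scaling factors of the trimmed mean of M values (TMM), which correct for the share taken by the most abundant genes, ran from 0.459 to 1.73. Levels across libraries are therefore given as TMM-scaled CPM unless another scale is named. In each set of values, the libraries are listed as replicates 1, 2 and 3.

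Standard diet replicates 1 and 2 had the lowest counts of Icam1 and Tnf, genes that TNF is known to induce, which were named here after their values were seen. Icam1, an adhesion molecule, had 13, 55 and 329 counts under standard chow, then 589, 192 and 201 counts under depleted chow. Tnf itself had 6, 5 and 78 counts under standard chow, then 273, 58 and 154 counts under depleted chow. Other inducible genes did not all follow: Relb and Nfkb2 were not low in standard diet replicate 2, in CPM of total counts or TMM-scaled. Cxcl16 was low in standard diet replicate 1 alone in CPM of total counts. By counts and after TMM scaling, Cxcl16 was lowest in standard diet replicates 1 and 2. Both libraries are labelled as TNF treated, and with no untreated library that label could not be checked, so a diet difference in these genes and a difference in exposure to TNF cannot be told apart. The log2 fold changes of the feedback inhibitors, the counts by direction and the comparison of inhibitors with the non-canonical arm are also given without these libraries.

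Promoter sequence was read for all 10 genes, from 250 bases before to 50 bases from the annotated start on, in GRCm39 with GENCODE M39 starts. The kB motif, the DNA element that NF-kB pairs bind, was searched for as GGGNNNTTCC on both strands. A match was found for 4 of the 10 genes (Nfkbia, Nfkbie, Tnfaip3 and Relb), with 2 matches in Relb. Of 21770 promoters of protein-coding genes, 5.78% held a match, and of the 9567 that belong to tested genes, 6.31%. The looser kB consensus, which also took in each of these matches, was found in the same 4 genes. It was in 8.97% of all promoters and in 10.2% of those of tested genes. The windows of 4 genes with a match and of Nfkb2, the partner of Relb and without a match, are printed 5′ to 3′ on the strand of the gene. Capitals mark bases matched by either form of the motif.
Nfkbia, chr12:55539383-55539682, minus strand: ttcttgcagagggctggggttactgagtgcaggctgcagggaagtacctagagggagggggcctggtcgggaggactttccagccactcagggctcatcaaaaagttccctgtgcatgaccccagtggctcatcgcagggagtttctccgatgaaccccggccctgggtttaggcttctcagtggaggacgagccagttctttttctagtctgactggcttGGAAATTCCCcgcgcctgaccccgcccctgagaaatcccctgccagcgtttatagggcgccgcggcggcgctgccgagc
Nfkbie, chr17:45866356-45866655, plus strand: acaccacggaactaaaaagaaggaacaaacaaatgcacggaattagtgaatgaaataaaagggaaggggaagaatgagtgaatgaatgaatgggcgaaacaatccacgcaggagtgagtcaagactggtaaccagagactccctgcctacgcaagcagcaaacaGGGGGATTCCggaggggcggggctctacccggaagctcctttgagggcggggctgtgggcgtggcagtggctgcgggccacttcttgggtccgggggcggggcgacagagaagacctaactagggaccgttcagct
Tnfaip3, chr10:18891137-18891436, minus strand: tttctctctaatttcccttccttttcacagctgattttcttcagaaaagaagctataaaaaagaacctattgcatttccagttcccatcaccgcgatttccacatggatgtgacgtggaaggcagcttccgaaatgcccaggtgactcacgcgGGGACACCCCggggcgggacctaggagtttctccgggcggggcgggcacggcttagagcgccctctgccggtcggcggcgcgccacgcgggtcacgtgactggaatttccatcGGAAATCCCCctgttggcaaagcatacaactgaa
Relb, chr7:19363374-19363673, minus strand: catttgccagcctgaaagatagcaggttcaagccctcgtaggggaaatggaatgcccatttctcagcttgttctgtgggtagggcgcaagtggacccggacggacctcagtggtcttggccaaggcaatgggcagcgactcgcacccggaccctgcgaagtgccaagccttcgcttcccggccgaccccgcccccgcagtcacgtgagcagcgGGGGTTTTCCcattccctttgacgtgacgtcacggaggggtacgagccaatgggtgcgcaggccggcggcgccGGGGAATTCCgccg
Nfkb2, chr19:46292509-46292808, plus strand: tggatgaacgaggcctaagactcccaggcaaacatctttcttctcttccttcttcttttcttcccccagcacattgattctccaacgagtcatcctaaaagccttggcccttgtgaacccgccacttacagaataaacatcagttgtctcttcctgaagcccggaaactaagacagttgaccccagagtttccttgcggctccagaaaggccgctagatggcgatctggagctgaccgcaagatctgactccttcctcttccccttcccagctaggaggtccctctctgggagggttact
Counted with the start site as 0, the match in Nfkbia spans positions -29 to -20 and that in Nfkbie -86 to -77. In Relb the matches span -37 to -28 and 36 to 45, and in Tnfaip3 the match spans 16 to 25. The capitals further upstream in Tnfaip3 fit only the looser consensus. A match is a description of letters and not a measured binding site, and genes with several start sites were read at 1 of them.

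**Figure D1:**
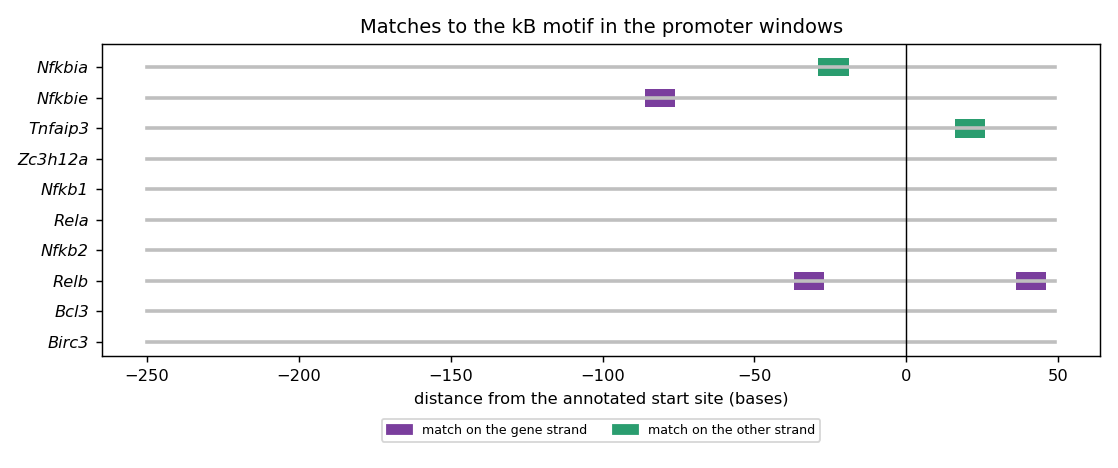
Matches to the kB motif GGGNNNTTCC in the promoter windows of the 10 genes. The x axis is the distance in bases from the annotated start site (vertical line), and each grey line is 1 window of 250 bases before to 50 bases from the start on. Coloured boxes are matches, by strand. Matches stand in 4 genes, Nfkbia, Nfkbie, Tnfaip3 and Relb, and the other 6 windows hold none.

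The levels of the genes were compared with each other per length, as TPM (counts divided by the length of the canonical transcript and brought to a common total). Nfkbia, which encodes IkB-alpha, the inhibitor that is destroyed and then resynthesized after TNF, was the most abundant in every library. It had 14.9, 15.4 and 62.3 TPM under standard chow, then 134.5, 42.3 and 33.4 TPM under depleted chow. Bcl3 came next with a mean of 17.1 TPM, and it was above Rela in each of the 6 libraries. Rela and Relb had means of 7.97 and 7.53 TPM and could not be ordered, since Rela was above Relb in 3 of 6 libraries. Relb was above Nfkb2 in 6 of 6. Nfkb2, Birc3, Nfkb1 and Zc3h12a followed with means of 6.83, 4.92, 4.29 and 4.17 TPM, and each of these neighbours changed places in some libraries. Tnfaip3 and Nfkbie were lowest, with means of 1.42 and 0.778 TPM. The SD over the 6 libraries was close to the mean for most genes, for example 44.8 TPM for Nfkbia and 6.82 TPM for Nfkb2. With the union of all exons as the length, Nfkbia was again above the next gene in 6 of 6 libraries, but Rela and Bcl3 had means of 7.57 and 7.53 TPM and Rela was above Bcl3 in 3 of 6, so the place of Bcl3 rests on the transcript chosen.

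Among the feedback inhibitors, Nfkbia (ENSMUSG00000021025, chromosome 12, 55535332 to 55539432, minus strand) was the most strongly counted. It had 19.9, 23.5 and 181 TMM-scaled CPM under standard chow, then 213, 175 and 202 TMM-scaled CPM under depleted chow. Standard diet replicate 3 lay within the zinc depleted libraries, while the other standard diet libraries lay far lower. On this scale the zinc depleted libraries were close to each other, at 197 ± 19.3 (SD, n = 3), against 74.7 ± 91.8 (SD, n = 3) under standard chow. In CPM of total counts the zinc depleted libraries were not close, at 310, 112 and 92.5 CPM. The log2 fold change of zinc depletion over standard diet was 1.40 (SE 0.74), which did not pass the threshold (edgeR quasi-likelihood test, two-sided, adjusted p 0.681). Without standard diet replicate 3 it was 3.23 and passed (edgeR adjusted p 0.0283), and without standard diet replicates 1 and 2 it was 0.12 (edgeR adjusted p 1.00).

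Tnfaip3 (ENSMUSG00000019850, chromosome 10, 18874201 to 18891405, minus strand) encodes A20, a ubiquitin-editing enzyme that shuts off signalling upstream of the IkB kinase. It had 1.42, 3.91 and 18.9 TMM-scaled CPM under standard chow, then 30.7, 18.6 and 20.0 TMM-scaled CPM under depleted chow. The pattern was that of Nfkbia, and standard diet replicate 3 lay inside the zinc depleted range so that the groups overlapped. The diet effect in log2 was 1.53 (SE 0.73), not past the threshold (edgeR adjusted p 0.681). Without standard diet replicates 1 and 2 it was 0.29.

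Zc3h12a (ENSMUSG00000042677, chromosome 4, 125012216 to 125021711, minus strand) encodes Regnase-1, a ribonuclease that degrades mRNAs of inflammatory genes. It had 4.03, 4.99 and 16.2 TMM-scaled CPM under standard chow, then 40.2, 16.4 and 22.5 TMM-scaled CPM under depleted chow. The groups did not overlap, by a margin of 16.2 against 16.4. Its log2 fold change was 1.66 (SE 0.57), with an unadjusted p of 0.0141 and an adjusted p of 0.681 in edgeR. It fell to 0.70 without standard diet replicates 1 and 2.

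Nfkbie (ENSMUSG00000023947, chromosome 17, 45866585 to 45874661, plus strand) encodes IkB-epsilon, another inhibitor of the IkB family. It was the least counted, with 1, 22 and 26 counts under standard chow, then 59, 27 and 25 counts under depleted chow. The single count in standard diet replicate 1 has an exact Poisson 95% interval of 0.0253 to 5.57 counts, which covers counting error only. On the TMM scale the values were 0.0791, 2.39 and 2.91 under standard chow, then 4.06, 5.69 and 4.27 under depleted chow, without overlap. The log2 fold change was 1.40 with SE 0.81 (adjusted p 0.681 in edgeR), and 0.67 without standard diet replicates 1 and 2.

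**Figure D2:**
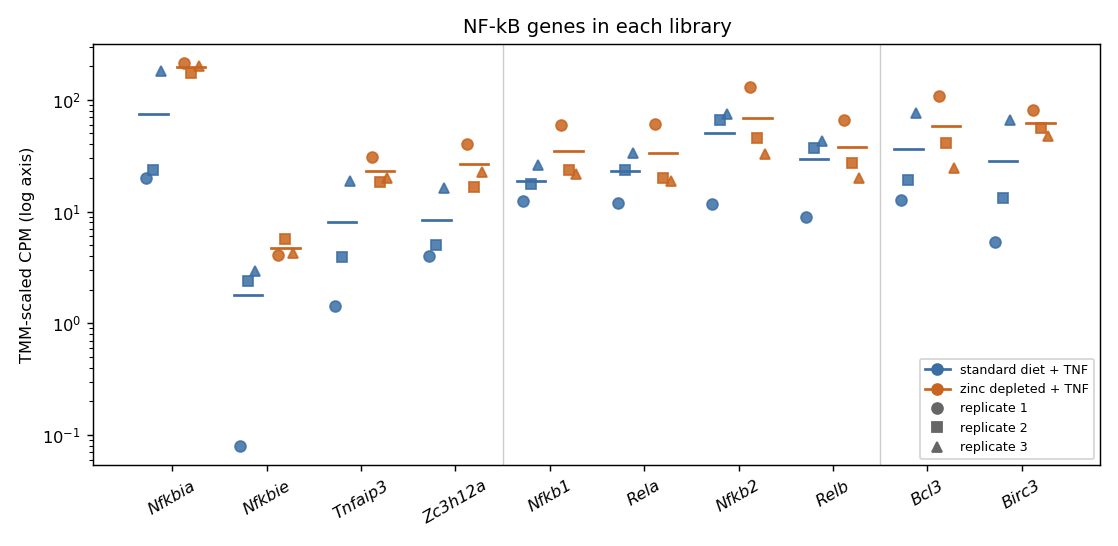
TMM-scaled CPM of the 10 genes in each library, on a log axis. Points are single libraries (circle, square and triangle for replicates 1, 2 and 3), short lines are group means (n = 3), and vertical lines part the feedback inhibitors, the subunits and the 2 other regulators. The circle of standard diet replicate 1 is lowest for all 10 genes, and the zinc depleted points span 1.21-fold to 2.44-fold for the 4 inhibitors and 2.73-fold to 3.94-fold for the 4 subunits.

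The subunits behaved differently between libraries. Nfkb2 (ENSMUSG00000025225, chromosome 19, 46292759 to 46303812, plus strand) had 11.6, 65.4 and 74.8 TMM-scaled CPM under standard chow, then 129, 45.5 and 32.8 TMM-scaled CPM under depleted chow. Relb (ENSMUSG00000002983, chromosome 7, 19339017 to 19363425, minus strand) had 8.94, 37.3 and 43.1 TMM-scaled CPM under standard chow, then 65.4, 27.2 and 19.8 TMM-scaled CPM under depleted chow. For both genes of the non-canonical arm, standard diet replicates 2 and 3 lay above zinc depleted replicates 2 and 3, and the extremes were the libraries numbered 1. The log2 fold change was 0.46 with SE 0.68 (adjusted p 0.840 in edgeR) for Nfkb2 and 0.34 with SE 0.60 (adjusted p 0.873 in edgeR) for Relb. Both turned negative without zinc depleted replicate 1, to -0.36 and -0.33. An antisense gene, 4833438C02Rik, overlaps Nfkb2 and had 297 counts over the 6 libraries, and how strand was treated in counting was not stated.

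The canonical subunit genes ranged less between libraries on the TMM scale. Nfkb1 (ENSMUSG00000028163, chromosome 3, 135290264 to 135397742, minus strand), whose product p105 yields p50, had 12.4, 17.6 and 26.1 TMM-scaled CPM under standard chow, then 59.6, 23.6 and 21.8 TMM-scaled CPM under depleted chow. The diet effect in log2 was 0.91 (SE 0.48), not past the threshold (edgeR adjusted p 0.681). It was 0.29 when zinc depleted replicate 1 was left out. Rela (ENSMUSG00000024927, chromosome 19, 5687493 to 5698161, plus strand), the transactivating partner, had 11.9, 23.3 and 33.3 TMM-scaled CPM under standard chow, then 61.2, 20.0 and 18.9 TMM-scaled CPM under depleted chow. The diet effect in log2 was 0.56 (SE 0.54), not past the threshold (edgeR adjusted p 0.772). It was -0.22 when zinc depleted replicate 1 was left out. For both, zinc depleted replicate 1 stood above the other 5 libraries, which ranged 2.10-fold for Nfkb1 and 2.81-fold for Rela.

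Bcl3 (ENSMUSG00000053175, chromosome 7, 19541553 to 19557570, minus strand) encodes a nuclear IkB protein that binds p50 and p52 on DNA. Its start site lies 193 kb from that of Relb. It had 12.7, 19.0 and 76.7 TMM-scaled CPM under standard chow, then 109, 41.3 and 24.6 TMM-scaled CPM under depleted chow, so the groups overlapped widely. The log2 fold change was 0.70 with SE 0.70 (adjusted p 0.782 in edgeR), and -0.13 without zinc depleted replicate 1. Birc3 (ENSMUSG00000032000, chromosome 9, 7845790 to 7873229, minus strand) encodes cIAP2, a ubiquitin ligase that acts at the TNF receptor and holds the non-canonical kinase in check. It had 5.30, 13.3 and 66.5 TMM-scaled CPM under standard chow, then 80.6, 56.5 and 47.6 TMM-scaled CPM under depleted chow. Like Nfkbia, it was high on this scale in standard diet replicate 3 and in all zinc depleted libraries. In CPM of total counts, Birc3 in zinc depleted replicate 3 (21.8 CPM) was close to that in standard diet replicate 2 (20.0 CPM). The diet effect in log2 was 1.12 (SE 0.73), not past the threshold (edgeR adjusted p 0.697).

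Taking the 10 genes as a group, 0 passed the edgeR threshold, as did 0% of the 9749 genes tested. Over all genes, 645 had an unadjusted p under 0.05 with edgeR (6.62%), DESeq2 called 10 genes and limma-voom 0. Of the 10 genes, 1 (Zc3h12a) had an unadjusted p under 0.05 and was higher, against 2.58% of tested genes higher and 4.03% lower. That count depended on the fit, from 0 with total counts only to 2 with DESeq2, 5 with limma-voom and 6 without the low-count filter. Among fits with 1 library left out, it was 6 without standard diet replicate 3. It was 0 without standard diet replicate 1, without standard diet replicate 2 and without zinc depleted replicate 1. Without zinc depleted replicate 2 it was 1, and without zinc depleted replicate 3 it was 2. All 10 had a log2 fold change above 0 with TMM, with the factors of DESeq2's kind (RLE) and with total counts, against 50% of tested genes with TMM. Their median was 1.02 with TMM. The genes were chosen with earlier results of these data known, so these counts are a description and not independent support. With total counts only, the median of all tested genes was -0.67 and that of the 10 genes 0.79. The groups did not overlap on the TMM scale for 2 of the 10 (Zc3h12a and Nfkbie, both higher), against 3.51% of tested genes that were higher without overlap. None of the 10 was lower without overlap, against 6.58% of tested genes. With RLE factors the count was 2 of 10 higher, against 3.83%, and 0 lower, against 6.15%. With total counts only, the groups overlapped for all 10, against 0.554% of tested genes higher and 10.3% lower without overlap. For Nfkb2, Relb, Rela and Bcl3 the direction rested on single libraries, while the 4 inhibitors, Nfkb1 and Birc3 were higher with any 1 library left out. Without zinc depleted replicate 1, 6 of 10 were higher, and without standard diet replicate 1, 8 of 10. Without standard diet replicates 1 and 2, chosen after the data were seen, 6 of 10 were higher with a median of 0.06.

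**Figure D3:**
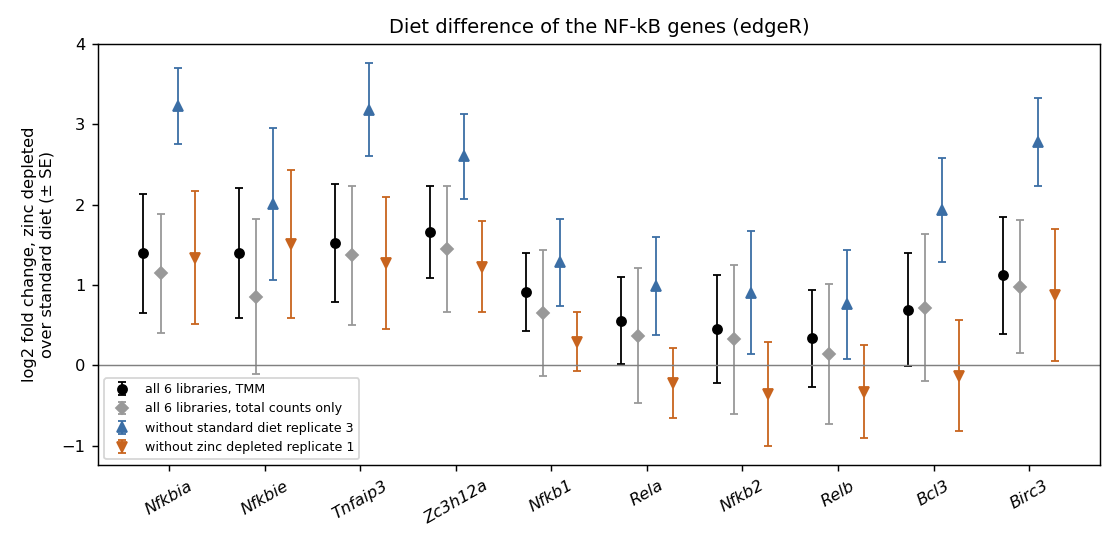
Log2 fold change of zinc depletion over standard diet (edgeR, bars ± SE) for the 10 genes with all 6 libraries under TMM, with total counts only, without standard diet replicate 3 and leaving out zinc depleted replicate 1. Values for the inhibitors stay above 0 in all 4 fits, while Nfkb2, Relb, Rela and Bcl3 fall below 0 without zinc depleted replicate 1.

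On the TMM scale most extremes fell in the libraries numbered 1. The lowest TMM-scaled CPM was that of standard diet replicate 1 for 10 of the 10 genes, against 17.3% of tested genes. The highest was that of zinc depleted replicate 1 for 9 of the 10, against 22.2% of tested genes, with Nfkbie as the exception. In CPM of total counts, standard diet replicate 1 was lowest for 5 of the 10 (the 4 inhibitors and Birc3), against 2.93% of tested genes, and the other 5 were lowest in zinc depleted replicate 3. On that scale zinc depleted replicate 1 was highest for 10 of the 10, against 28.9% of tested genes. Zinc depleted replicate 1 also had the highest summed level of 7 goblet cell markers, 6468 CPM, where the other 5 libraries had 1547 to 2953 CPM. Most of that sum was Muc2, at 4532 CPM. Another goblet cell marker, Fcgbp, had 275 CPM there but 468 CPM in standard diet replicate 2. The summed level of 10 genes that respond to cell dissociation was also highest in zinc depleted replicate 1, 513 CPM against 81.0 to 320 CPM. The share of the 18S rRNA gene Rn18s-rs5 was 2.56% and 2.91% in standard diet replicates 1 and 2 and 0.522% to 1.27% in the other libraries. The part of these differences in the NF-kB values was not tested. In bulk RNA, fewer cells that express a gene and less RNA per cell cannot be told apart.

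The feedback inhibitors were then set against the non-canonical arm within each library, where scaling between libraries cancels. The ratio of Nfkbia to Relb in TPM was 4.78, 1.36 and 9.03 under standard chow, then 7.00, 13.9 and 21.9 under depleted chow, a 16.1-fold range. The ratio was lowest in standard diet replicate 2 and highest in zinc depleted replicates 2 and 3, and the groups overlapped between standard diet replicate 3 and zinc depleted replicate 1. The ratio of Tnfaip3 to Relb was 0.0783, 0.0514 and 0.216 under standard chow, then 0.230, 0.335 and 0.496 under depleted chow. In this case the groups did not overlap, by a margin of 0.216 against 0.230. With Nfkb2 in place of Relb they did overlap, at 0.247 in standard diet replicate 3 and 0.232 in zinc depleted replicate 1. Over the 4 inhibitors and the pair Relb and Nfkb2, the mean log2 ratio was -1.70, -2.39 and -0.80 under standard chow, then -0.82, 0.12 and 0.67 under depleted chow. The group means were -1.63 ± 0.80 (SD, n = 3) and -0.01 ± 0.75 (SD, n = 3), a difference of 1.62 that exceeded either SD although the groups overlapped narrowly. No p is given for this ratio, since the genes were chosen with earlier results known. Leaving out 1 library at a time gave 1.24 to 2.04. Without standard diet replicates 1 and 2 the difference was 0.79, set against the single library left, so much of its size rested on those libraries.

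Relb and Nfkb2 kept step with each other. In CPM each varied over 10-fold between libraries, by 10.5-fold for Relb and 12.5-fold for Nfkb2, and TMM-scaled by 7.32-fold and 11.1-fold. Their TPM ratio stayed at 0.654, 0.881 and 0.873 under standard chow, then 0.992, 0.841 and 0.832 under depleted chow, a 1.52-fold range. This was not particular to the pair: Rela varied 10.2-fold in CPM, and its TPM ratio to Relb ranged 2.12-fold. By contrast, the ratio of Nfkb2 to Nfkb1 was 0.652, 2.59 and 2.00 under standard chow, then 1.51, 1.34 and 1.04 under depleted chow. Standard diet replicate 2 thus held the highest level of the non-canonical pair relative to Nfkb1, at a level of Nfkbia (35.3 CPM) close to that of standard diet replicate 1 (34.2 CPM). In CPM, Relb was 15.4 in standard diet replicate 1 and 56.0 in standard diet replicate 2, and Nfkb2 was 20.0 and 98.2. Standard diet replicate 2 also had the highest tuft cell sum of the 6 libraries, 975 CPM. Zinc depleted replicate 1, with 188 CPM of Nfkb2, had a tuft cell sum of 247 CPM. Whether tuft cell RNA had a part in these values was not tested.

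**Figure D4:**
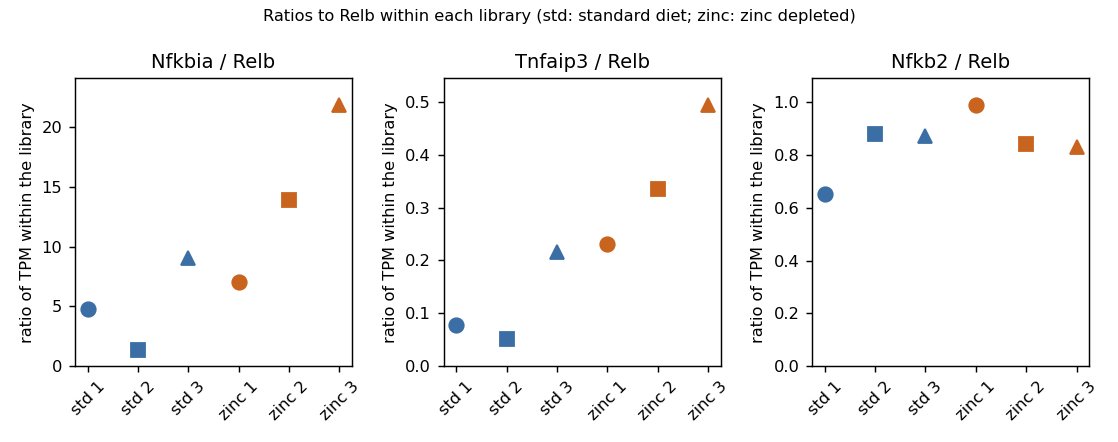
Ratios of TPM to Relb within each library for Nfkbia, Tnfaip3 and Nfkb2 (y axes, linear from 0). Each point is 1 library, blue for standard diet and orange for zinc depletion. The ratio of Nfkbia to Relb runs from 1.36 to 21.9 while that of Nfkb2 to Relb stays between 0.654 and 0.992.

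Other genes of the pathway were examined from 4 lists. None passed the edgeR threshold. Their levels are given as CPM of total counts or as counts, but their log2 fold changes with TMM. These scales can differ in direction for the same gene. Of 25 genes of canonical signalling, 24 were tested, 17 of which had a log2 fold change above 0 with TMM but 6 by total counts alone, and the median was 0.18 with TMM. Tnfrsf1a, the main TNF receptor, had 63.1, 79.3 and 60.4 CPM under standard chow, then 135, 26.2 and 17.9 CPM under depleted chow (log2 fold change 0.14, edgeR adjusted p 0.929). The adaptor gene Tab1 and the subunit gene Rel had the smallest unadjusted p of this list, 0.105 and 0.0997 in edgeR. Rel, which encodes c-Rel, had 3, 8 and 77 counts under standard chow, then 280, 21 and 45 counts under depleted chow, again highest in zinc depleted replicate 1. The most abundant other genes were those of the ubiquitin pathway, Ube2d3 and Skp1, at 71.0 to 104 CPM and 45.6 to 77.3 CPM.

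Of 12 genes upstream in the non-canonical arm, 7 were tested, and 7 of these had a log2 fold change above 0 under TMM scaling and 4 with total counts only. The median was 0.88 with TMM. Ltbr, the lymphotoxin beta receptor, had 52.1, 48.5 and 37.9 CPM under standard chow, then 68.5, 27.5 and 21.5 CPM under depleted chow. On the TMM scale it was higher with zinc depletion without overlap, like 3.51% of tested genes. Its log2 fold change was 0.39 with SE 0.35 (adjusted p 0.756 in edgeR). Tnfrsf12a, the receptor for TWEAK, had 5.04, 2.28 and 16.7 CPM under standard chow, then 10.8, 10.4 and 29.8 CPM under depleted chow (log2 fold change 1.94, SE 0.93, edgeR adjusted p 0.681). Tnfrsf1b, the second TNF receptor, had 44, 40 and 178 counts under standard chow, then 527, 68 and 77 counts under depleted chow.

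Of 20 other negative regulators, 16 were tested, 12 of which had a log2 fold change above 0 under TMM scaling and 10 by total counts alone, and the median was 0.87 with TMM. Nfkbiz encodes a nuclear IkB protein, and whether it restrained NF-kB in these cells was not measured. It had 7.49, 5.70 and 3.81 CPM under standard chow, then 27.7, 3.36 and 5.25 CPM under depleted chow. Its log2 fold change was 1.54 (SE 0.48), with an unadjusted p of 0.00822 and an adjusted p of 0.681 in edgeR. The groups overlapped in CPM of total counts but not on the TMM scale, where zinc depletion was higher. Tank, an adaptor that binds TRAF proteins, had a log2 fold change of 1.04 with SE 0.49 (adjusted p 0.681 in edgeR). Zfp36, whose product tristetraprolin destabilizes cytokine mRNAs, had 18.4, 11.4 and 70.0 CPM under standard chow, then 169, 38.1 and 13.5 CPM under depleted chow. Rnf11 and Tax1bp1, partners of A20, had log2 fold changes of 0.81 and -0.14.

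Of 26 other inducible targets, 15 were tested, 14 of which had a log2 fold change above 0 under TMM scaling and 12 by total counts alone, and the median was 1.05 with TMM. Tnf and Lcn2, the gene of the iron-sequestering protein lipocalin 2, had the smallest unadjusted p, 0.0148 and 0.0316 in edgeR, with log2 fold changes of 2.58 and 2.11 and an adjusted p of 0.681. Icam1 had a log2 fold change of 1.40 with SE 0.87 (adjusted p 0.687 in edgeR). Cxcl16, a chemokine, had 2.59, 26.5 and 40.6 CPM under standard chow, then 42.4, 35.1 and 26.2 CPM under depleted chow. In CPM of total counts standard diet replicate 1 alone was low, while after TMM scaling standard diet replicates 1 and 2 were lowest. The transcription factor gene Irf1 had 27.9, 16.8 and 41.4 CPM under standard chow, then 84.7, 31.2 and 13.5 CPM under depleted chow.

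Among 4263 genes with a mean log2 CPM of at least 3, those whose levels were most like the mean of the 10 genes over the 6 libraries were Sft2d2, Shf, Nipal2, Gclc and Gramd2b, with Pearson's r of 0.993 to 0.998. The r in this paragraph were taken on log2 TMM-scaled CPM, while the levels printed are CPM of total counts, so the 2 patterns can differ. Gclc, which encodes the catalytic subunit of the enzyme that starts glutathione synthesis, had 20.2, 49.4 and 91.4 CPM under standard chow, then 262, 41.2 and 31.8 CPM under depleted chow. Most like the difference of the non-canonical pair from the inhibitors were Mapk3 (the gene of the kinase ERK1), Actr1a, Wwp2, Rab3ip and Tjp3, with r of 0.983 to 0.999. Mapk3 had 149, 170 and 62.9 CPM under standard chow, then 100.1, 33.5 and 20.4 CPM under depleted chow. These r describe 6 libraries, of which standard diet replicates 1 and 2 and zinc depleted replicate 1 also had the highest TMM factors (1.73, 1.51 and 1.46), and they carry no test.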

How the data were processed

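RNA-seq libraries were prepared from Paneth cells sorted by FACS. The authors deposited raw read counts per Ensembl gene, 1 library per column. Per the submitters' processing notes the tools were FastQC, Trimmomatic 0.39, STAR 2.7.10a and DESeq2, with genome mm39 (GRCm39). How reads were assigned to genes, by strand or not, was not stated in the sources at hand. Gene symbols, positions and transcript lengths came from GENCODE M39, which held 54749 of the 55414 identifiers, and the other identifiers held at most 0.00479% of the counts of a library.

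The effect of diet was fitted in edgeR 4.0.16 (R 4.3.3) by quasi-likelihood (TMM, filterByExpr, Benjamini-Hochberg adjustment over all 9749 tested genes, threshold 0.05, two-sided). SE is the absolute log2 fold change divided by the square root of F. Ratios of the inhibitors to the non-canonical arm used counts plus 0.5 over length. The edgeR fit was tested on simulated data with known changes. Libraries of a group all differed beyond sampling noise (chi-square per degree of freedom of 15.3 to 168 within groups). The design text calls the replicates biological, and the study describes its samples as taken from single animals. Counting intervals cover counting error only.

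Named were all 10 genes, and from each of the other 4 pathway lists the 3 tested genes with the highest mean level and the 2 with the smallest unadjusted p, since none passed, as well as the 5 genes of most similar pattern. Cd3e, Trac, Ptprc, Itgax, Cd74, Csf1r, Muc2, Fcgbp, Lyz1 and Mmp7 were named as cell type markers. The members and lists were chosen with earlier results of these data known. Alternatives were DESeq2 1.42.0, limma-voom (limma 3.58.1), RLE factors, total counts only, no filter, the replicate number as a block and leaving out libraries. Promoter sequence was read from GRCm39. Protein sequences were not used here.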

Additional observations from a re-analysis of the deposited data

How the results depend on the processing

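None of the 10 genes passed the threshold in any fit except Nfkbia without standard diet replicate 3 (log2 fold change 3.23). The number of genes called among all tested, 0 with edgeR, was 10 with DESeq2 and 76 without the low-count filter, and ranged from 0 to 28 when 1 library was left out, the 28 without standard diet replicate 3. DESeq2 gave no p for Nfkbia. Signs turned in few fits. Without standard diet replicate 1 the log2 fold changes of Nfkb2 and Relb were -0.02 and -0.09. Without zinc depleted replicate 1 those of Nfkb2, Rela, Relb and Bcl3 were -0.36, -0.22, -0.33 and -0.13. Without standard diet replicates 1 and 2, added after seeing the data, those of Nfkb2, Relb, Bcl3 and Birc3 were -0.11, -0.20, -0.40 and -0.12, with 1 standard diet library that is assumed to vary like the others. The cause was not tested. With 1 library left out, Nfkbia ranged from 0.94 to 3.23, Nfkbie from 0.81 to 2.01, Tnfaip3 from 1.02 to 3.18, Zc3h12a from 1.23 to 2.61, Nfkb1 from 0.29 to 1.28, Rela from -0.22 to 0.99, Nfkb2 from -0.36 to 0.91, Relb from -0.33 to 0.76, Bcl3 from -0.13 to 1.94 and Birc3 from 0.63 to 2.78. Genes without overlap numbered 2 with TMM and 0 with total counts only. The difference of inhibitors and non-canonical arm ranged from 1.24 to 2.04 with 1 library left out. In alternatives added after seeing the data, it was 1.57 without Nfkbie, 1.99 without the libraries numbered 1 of both diets and 0.79 without standard diet replicates 1 and 2.

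The replicate numbers were not taken as pairs, since the deviations of same-numbered libraries correlated at 0.147, -0.0584 and 0.248. Standard diet replicates 1 and 3 correlated best with their own number, and standard diet replicate 2 with another. This check did not settle whether the libraries were paired. With the replicate number as a block, 0 genes were called, and the log2 fold changes of the 10 genes were all above 0 with a median of 1.37 and a lowest adjusted p of 0.300 in edgeR, and 5 of them had an unadjusted p under 0.05. Nfkbie, with 1 to 59 counts, is the gene that depth limits most.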
